A study of Rattus norvegicus with 2 samples.

Results

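Thyroid hormone handling was examined in the hypothalamus of female Sprague Dawley rats at postnatal day (PND) 29 through 8 listed genes, *Dio2*, *Dio3*, *Slco1c1*, *Thra*, *Thrb*, *Crym*, *Ttr* and *Klf9*, with most attention to tanycytes. The genes were matched by name to the 32883 genes of the deposited tables. Of the 8 names, 7 were measured, and *Dio2* was not analysed here. For SC300, pups had been implanted on PND 0.5 with a capsule that held 300 µg of estradiol benzoate (EB), whereas Control rats received an oil capsule according to the methods and are called intact in the labels. Hypothalamic tissue of 3 rats was pooled per group, and 1 single-cell library was made from each pool. No rat can be told from another within a pool, so no test between groups was possible, and no *P*-value is given.

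Transcripts were counted by unique molecular identifiers (UMIs), tags that mark each captured molecule. A minimum of 200 detected genes left 4296 cells in Control, with 51382276 UMIs in all, and 4379 cells in SC300, with 56390355 UMIs. Cells were assigned by gates of marker genes. A tanycyte-like cell had at least 3 of *Lhx2*, *Stra6*, *Calml4*, *Ppp1r1b* and *Rax* detected and fewer than 2 UMIs of the neuronal gene *Snap25*, and the cells that remained were assigned to the other classes by their own markers. A level is given as CPM, the UMIs of a gene scaled to 1000000 UMIs of the cells of a class. A ratio is the log2 of the CPM in SC300 over that in Control. Ranges in parentheses are 95% intervals by exact methods (conditional binomial for ratios, Poisson for levels and Clopper-Pearson for shares of cells), and they cover counting error only, not the variation between rats.

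Tanycytes are glial cells that line the floor and lower walls of the third ventricle and send processes into the arcuate nucleus and median eminence. In the brain, thyroxine enters through transporters such as OATP1C1, the product of *Slco1c1*, and is converted to the active hormone by the type 2 deiodinase (*Dio2*), whereas the type 3 deiodinase (*Dio3*) inactivates both forms. In the cell, mu-crystallin (*Crym*) binds the active hormone in the cytosol, the nuclear receptors (*Thra*, *Thrb*) act on genes such as *Klf9*, and transthyretin (*Ttr*) carries thyroxine in the cerebrospinal fluid. Tanycytes are known for deiodinase genes that follow day length in seasonal mammals.

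The 250 bases before the annotated start are shown for *Dio3*, which had the largest ratio of the members in tanycyte-like cells, and for *Klf9*, which was lower in SC300 in most classes. Both are from RefSeq, build GRCr8, which is not the build of the counts, and 6 of the 8 members had such a window. Capitals mark the TATA box (TATAAA) and the GC box (GGGCGG), searched on both strands, so that CCGCCC is a GC box on the minus strand.
Dio3, chr6:135106822-135107071, plus strand: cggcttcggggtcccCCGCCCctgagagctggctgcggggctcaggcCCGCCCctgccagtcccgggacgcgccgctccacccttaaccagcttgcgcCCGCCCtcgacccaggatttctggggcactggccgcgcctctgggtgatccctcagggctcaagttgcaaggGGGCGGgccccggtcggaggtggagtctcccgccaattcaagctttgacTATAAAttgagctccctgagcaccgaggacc
Klf9, chr1:230126396-230126645, plus strand: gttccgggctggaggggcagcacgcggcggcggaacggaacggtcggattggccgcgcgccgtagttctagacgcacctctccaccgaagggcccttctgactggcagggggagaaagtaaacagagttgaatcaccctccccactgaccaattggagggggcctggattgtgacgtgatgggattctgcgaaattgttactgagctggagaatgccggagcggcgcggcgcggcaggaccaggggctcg
The *Dio3* window held 1 TATA box, 31 to 26 bases before the start, and 4 GC boxes. Of all 33469 windows of this length in the table, 12.9% held a TATA box and 30.5% a GC box. The *Klf9* window held none of the motifs searched. The receptor motif AGGTCA, found in 14.1% of all windows, its repeat with 4 bases between the copies (0.00299%) and the estrogen receptor motif, GGTCA and TGACC 3 bases apart (0.0239%), were in neither window. A match of letters is a description and does not show binding, and a site outside the window would not be seen.

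The tanycyte gate took 283 Control cells, 6.59% of those kept (5.86 to 7.37), and 161 SC300 cells, 3.68% (3.14 to 4.28). *Crym* led the genes that set these cells apart from the others, followed by *Ces1d*, *Frzb* and *Tagln*. Of the gate markers, *Lhx2* (211 and 207 CPM) and *Calml4* (315 and 334 CPM) had close levels in Control and SC300, *Stra6* (199 and 104 CPM) and *Ppp1r1b* (825 and 463 CPM) were lower in SC300, and *Rax* was sparse at 3.84 and 5.58 CPM. A gate that needed 2 of *Lhx2*, *Calml4* and *Rax* took 239 and 151 cells. The median cell had 11251 UMIs in Control and 12657 UMIs in SC300, with a median of 13.6% and 13.4% mitochondrial UMIs. None of the 9 barcodes present in both libraries was tanycyte-like.

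Many of these cells also carried markers of the neighbouring cell types. The ependymal gate was passed by 71.7% of tanycyte-like cells in Control and 81.4% in SC300, and the summed ependymal markers reached 2427 and 2127 CPM, against 4269 and 3550 CPM in ependymal-like cells. A set of 26 Control and 18 SC300 cells had ependymal markers at 4000 CPM or more. In that set *Crym* was at 38.8 and 28.4 CPM, compared with 2496 and 3692 CPM in the other tanycyte-like cells. Endothelial markers summed to 121 CPM in Control and 14.9 CPM in SC300, and 5 Control and 2 SC300 cells passed the endothelial gate as well. Some of the results, not all, are also given without the cells of these sets.

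In tanycyte-like cells *Dio3* and *Crym* were higher and *Slco1c1*, *Thrb* and *Klf9* lower in SC300, while the interval for *Thra* held 0 and *Ttr* was near absent. For *Crym* and *Thrb* the interval lay away from 0 in the cells that also passed the ependymal gate and held 0 in those that did not. For *Crym*, however, those of the latter that passed no other gate at all had a ratio of 0.92 (0.76 to 1.07). That value rests on 54 Control and 18 SC300 cells, and 1 SC300 cell held 171 of the 568 UMIs. Of the 7 measured members, 6 had at least 100 UMIs in tanycyte-like cells. More than 2-fold higher in SC300 was 1 of the 6 (*Dio3*), against 0.834% of the 7314 genes with 100 UMIs, and 0 were more than 2-fold lower, against 1.07%. At 1.5-fold, 2 of the 6 were higher, against 2.64% of all genes, and 3 were lower, against 4.58%. The counting interval lay above 0 for 2 members, against 9.43% of genes, and below 0 for 3, against 16.4%. The median ratio of all genes was -0.06.

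*Dio3*, the gene of the inactivating deiodinase, gave 32 UMIs in the 283 Control tanycyte-like cells and 309 UMIs in the 161 SC300 cells. Its level was 6.84 CPM (4.68 to 9.65) in Control and 95.9 CPM (85.5 to 107) in SC300, a log2 ratio of 3.81 (3.28 to 4.38). At least 1 UMI was found in 19 Control cells, 6.71%, and in 51 SC300 cells, 31.7%. Among the cells with *Dio3*, the median was 1 UMI in Control and 3 UMIs in SC300. Cells with 5 or more UMIs numbered 1 in Control and 17 in SC300, with a highest count of 6 and 30 UMIs in 1 cell. SC300 was therefore higher both in the number of cells with the transcript and in the UMIs per such cell. The 3 cells with the most UMIs held 37.5% of the UMIs in Control and 28.2% in SC300, and without them the ratio was 4.03. After thinning of each cell to 2000 UMIs, *Dio3* was found in 2.54% and 11.9% of the cells.

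Outside the ventricular wall classes *Dio3* was sparse. No UMI was found in microglia-like, oligodendrocyte precursor-like, mature oligodendrocyte-like or endothelial-like cells of either library. For microglia-like cells, with a median of 7593 UMIs in Control and 8046 UMIs in SC300, 0 of 409 and 0 of 380 cells allow a share of cells with a UMI of up to 0.733% and 0.789%, set by 3 counts of the total. This limits what was detected at this depth and not expression. Astrocyte-like cells held 14 Control and 9 SC300 UMIs in 1236 and 1401 cells, and neuron-like cells 3 and 9 UMIs. In ependymal-like cells there was 1 UMI in 41 Control cells and there were 34 UMIs in 37 SC300 cells, at 2.49 and 81.9 CPM, a ratio of 5.04 (2.47 to 10.39). Of the 34 UMIs, 29 lay in 3 cells, which had 2, 2 and 4 of the tanycyte markers detected, and the other 34 cells held 5 UMIs. The ependymal value therefore rests on 3 cells near the edge of the tanycyte gate. In SC300 the tanycyte-like cells held 67.6% of all *Dio3* UMIs, and 59 UMIs lay in cells of no gate and 37 UMIs in cells of more than 1 gate. Outside the tanycyte gate, 11 SC300 cells had 3 or more *Dio3* UMIs, of which 9 had at least 1 tanycyte marker and 7 had *Crym*. A cell with 4 *Dio3* UMIs had no tanycyte marker and 27 *Snap25* UMIs. The shares with a marker or *Crym* over all cells outside the gate are not given. These counts therefore do not show that the cells were tanycytes.

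**Figure D1:**
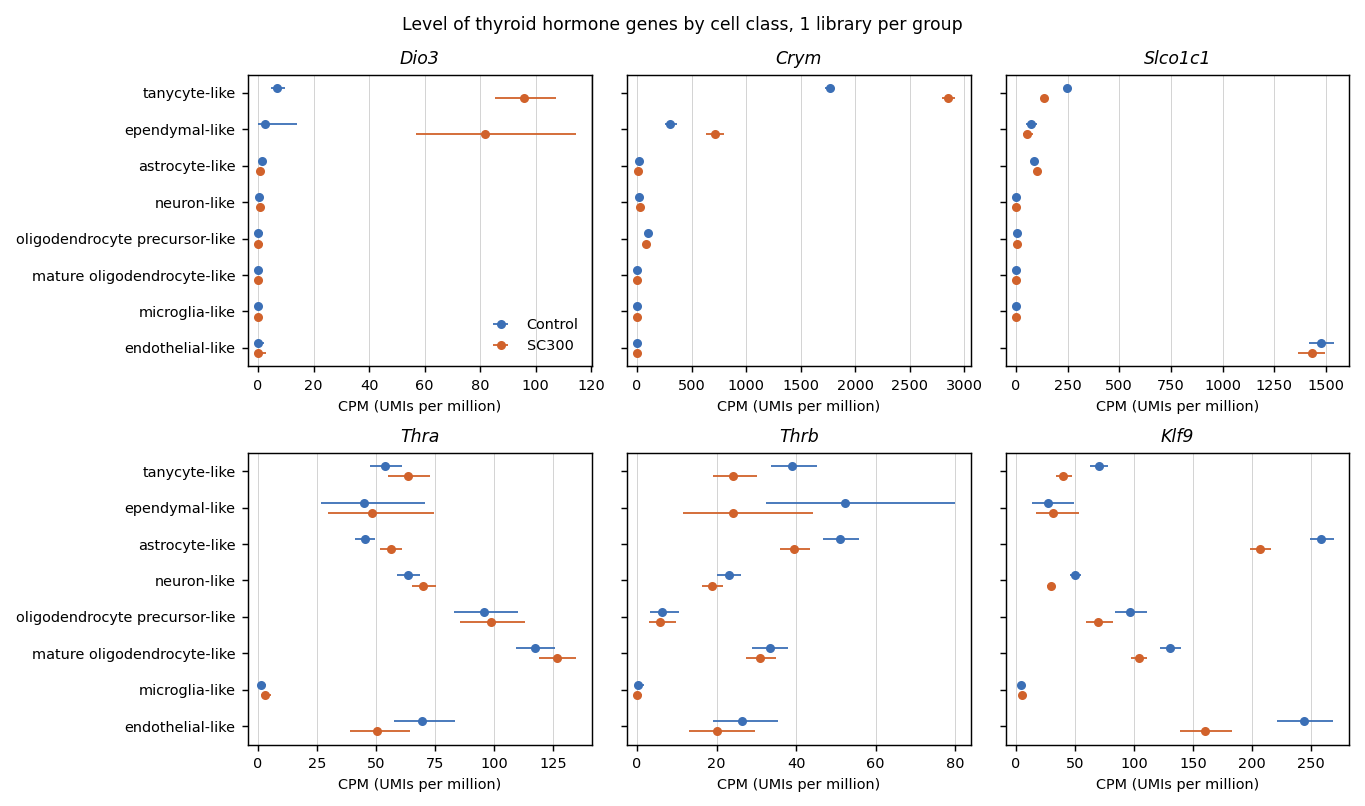
Level of 6 members in 8 cell classes (CPM, linear axes that differ between panels) in the Control library (blue) and the SC300 library (orange), with exact Poisson 95% intervals. *Dio3* stands out in SC300 tanycyte-like cells (95.9 CPM) and is at 81.9 CPM in ependymal-like cells, where 3 cells with 2 or more tanycyte markers hold 29 of 34 UMIs, *Slco1c1* is highest in endothelial-like cells, and *Klf9* is lower in SC300 in most classes.

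*Slco1c1*, which encodes a thyroxine transporter of the blood-brain barrier, was highest in endothelial-like cells, and of the 3 classes with 100 UMIs its interval lay below 0 in tanycyte-like cells alone, as long as cells of more than 1 gate were left out. Tanycyte-like cells had 1163 Control and 432 SC300 UMIs, at 248 CPM (234 to 263) and 134 CPM (122 to 147), a ratio of -0.89 (-1.05 to -0.73). The share of cells with the transcript was 78.1% in Control and 75.2% in SC300, whereas the median cell held 3 and 1 UMIs, and cells with 5 or more UMIs numbered 98 of 283 and 25 of 161. In mature oligodendrocyte-like cells, with a median depth of 19576.5 and 20208 UMIs, 2.20% and 2.58% of cells had a UMI. After thinning to 2000 UMIs the tanycyte-like shares were 39.1% and 27.7%. Without the few cells that passed the endothelial gate, 1044 and 421 UMIs remained and the ratio was -0.71 (-0.87 to -0.54). In endothelial-like cells the levels were 1477 and 1431 CPM, a ratio of -0.05 (-0.13 to 0.04). In astrocyte-like cells they were 87.7 and 100.4 CPM, a ratio of 0.20 (0.07 to 0.33), and the interval lay above 0 for 9.92% of the genes with 100 UMIs in these cells. Among these classes the order of endothelial-like over tanycyte-like over astrocyte-like cells was the same in both libraries, with intervals that did not overlap between neighbours as long as cells of more than 1 gate were left out.

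Cells that passed more than 1 gate besides the tanycyte gate were left out of all classes, and they held 52.9% of the *Slco1c1* UMIs in Control and 63.7% in SC300, at 513 and 470 CPM. With these cells placed in the class with most of their markers, the ratio was -0.14 (-0.20 to -0.09) in endothelial-like and 0.26 (0.15 to 0.37) in astrocyte-like cells. The astrocyte-like level was then 110 CPM (104 to 116) in Control and 131 CPM (125 to 138) in SC300, and in SC300 its interval overlapped that of the tanycyte-like cells.

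*Crym*, the gene of the cytosolic hormone-binding protein mu-crystallin, was the member most restricted to tanycyte-like cells, which held 85.7% of its UMIs in Control and 84.3% in SC300. The level was 1765 CPM (1727 to 1803) in Control and 2851 CPM (2793 to 2910) in SC300, a ratio of 0.69 (0.65 to 0.74). The share of cells with the transcript was 84.8% and 84.5%. In a tanycyte-like cell the lower quartile, median and upper quartile were 4, 16 and 35 UMIs in Control and 6, 32 and 69 UMIs in SC300. The ranges overlapped widely, with up to 375 UMIs in a Control cell and up to 566 UMIs in an SC300 cell. The counting interval is narrow because of the large totals, 8261 and 9190 UMIs, and it does not contain the variation between cells.

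Tanycyte-like cells were also divided by the ependymal gate. In the 203 Control and 131 SC300 cells that passed it, the *Crym* level was 1752 and 2986 CPM, a ratio of 0.77 (0.72 to 0.82). In the 80 and 30 cells that did not pass it, the level was 1825 and 1826 CPM, a ratio of 0.00 (-0.13 to 0.13). Of the *Crym* UMIs in these 30 SC300 cells, 47.1% lay in 3 cells. The 54 and 18 cells of this set that passed no other gate had a *Crym* ratio of 0.92 (0.76 to 1.07), from 832 and 568 UMIs. Of the 568 UMIs, 171 lay in 1 SC300 cell, so this value also rests on few cells. *Thrb* had a ratio of -0.82 (-1.26 to -0.40) in the cells that passed the ependymal gate. In those that did not, it was 0.07 (-1.06 to 1.12), from 25 and 12 UMIs. *Dio3* was higher in both sets, with ratios of 3.94 (3.28 to 4.68) and 3.92 (3.04 to 4.93). *Slco1c1* was lower in both, at -0.67 (-0.85 to -0.49) and -1.47 (-1.89 to -1.07), and so was *Klf9*, at -0.59 (-0.93 to -0.25) and -1.25 (-2.02 to -0.55). The differences between these sets were not tested.

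Outside the tanycyte-like cells *Crym* was lower than in them, and the ratios differed in sign. It was higher in SC300 in ependymal-like cells (304 and 713 CPM, ratio 1.23, 0.92 to 1.55). There 3 cells held 51.6% of its UMIs in Control and 44.3% in SC300. It was also higher in neuron-like cells (19.2 and 25.9 CPM, ratio 0.44, 0.17 to 0.71), where 8.14% of genes had an interval above 0. Within neurons, cells with *Slc32a1* and no *Slc17a6*, which mark GABAergic and glutamatergic neurons, had 12.3 and 26.1 CPM (ratio 1.08, 0.66 to 1.52), and cells with the opposite pattern 33.1 and 29.7 CPM (ratio -0.15, -0.52 to 0.22). In Control and SC300, 3 cells held 46.4% and 31.7% of the UMIs of the former set and 43.7% and 47.3% of the latter. *Crym* was lower in SC300 in astrocyte-like cells (19.1 and 7.70 CPM, ratio -1.31, -1.70 to -0.93) and in oligodendrocyte precursor-like cells (101 and 80.2 CPM, ratio -0.34, -0.64 to -0.04). Only 3.64% of Control and 3.28% of SC300 astrocyte-like cells had a *Crym* UMI, compared with 2.69% and 2.11% of microglia-like cells, so that the astrocyte value rests on few cells. In Control 1 astrocyte-like cell held 101 of the 186 UMIs, and without the 3 cells with the most UMIs in each library the ratio was -0.53 (-1.10 to 0.03). With cells of more than 1 gate placed, the ratio was -0.61 in astrocyte-like cells, 0.78 in neuron-like cells and -0.11 (-0.37 to 0.15) in oligodendrocyte precursor-like cells. In the neuron-like cells, 1 SC300 cell then held 152 of the 467 UMIs.

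**Figure D2:**
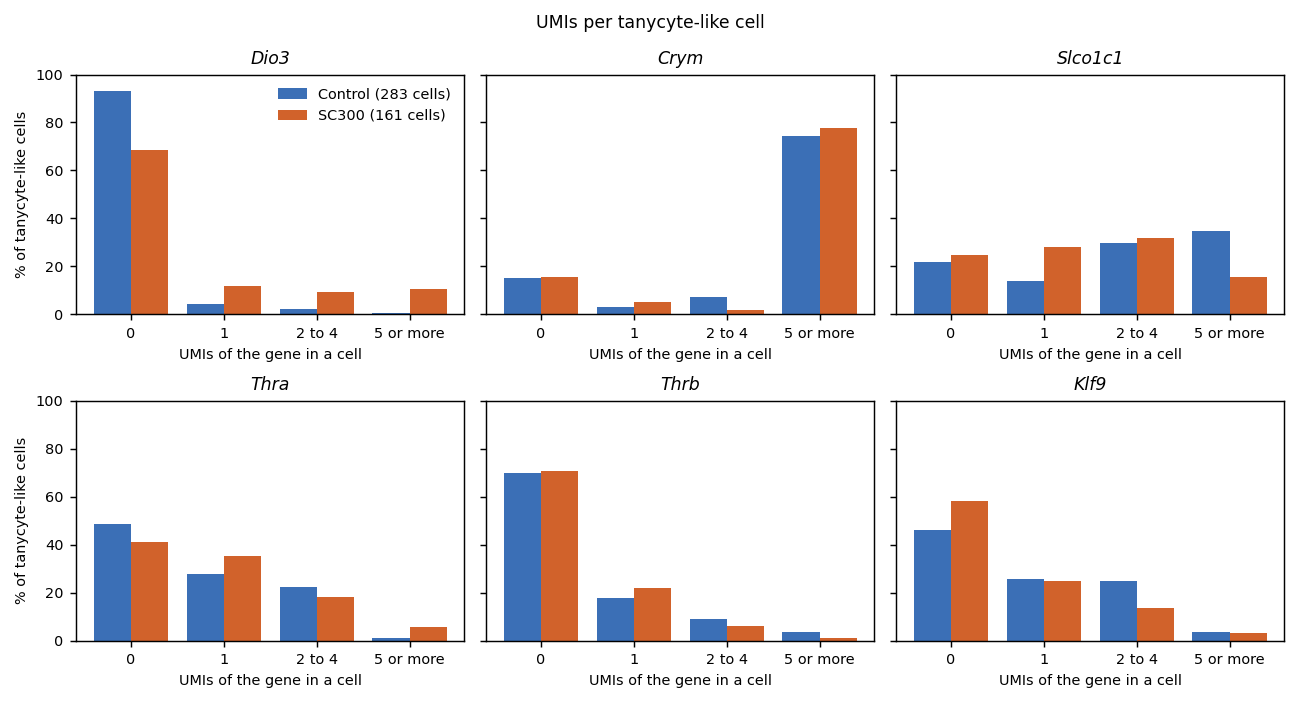
Share of tanycyte-like cells (%, vertical axis) with 0, 1, 2 to 4, or 5 or more UMIs of each of 6 members, in 283 Control cells (blue) and 161 SC300 cells (orange). For *Dio3* the cells with 5 or more UMIs number 1 in Control and 17 in SC300, and for *Slco1c1* they number 98 and 25.

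The receptor genes differed from each other in these cells. *Thrb* gave 183 Control and 78 SC300 UMIs in tanycyte-like cells, at 39.1 CPM (33.6 to 45.2) and 24.2 CPM (19.1 to 30.2), a ratio of -0.69 (-1.09 to -0.30). The share of cells with the transcript was 30.0% and 29.2%. After thinning, by 1 random draw, it was 6.88% (4.20 to 10.54) in Control and 1.89% (0.39 to 5.41) in SC300. These thinned shares rest on 19 of 276 and 3 of 159 cells, and their intervals overlapped. With every cell weighted alike the ratio was -0.35, and with at least 4 tanycyte markers it was -0.42 (-1.03 to 0.16). The 26 Control and 18 SC300 cells with ependymal markers at 4000 CPM or more held 84 and 32 of the *Thrb* UMIs. Without these cells the ratio was -0.70 (-1.24 to -0.18). *Thrb* was also lower in SC300 in astrocyte-like cells (51.1 and 39.6 CPM, ratio -0.37, -0.56 to -0.18) and neuron-like cells (23.1 and 18.9 CPM, ratio -0.29, -0.57 to -0.02). In glutamatergic neuron-like cells the ratio was -0.89 (-1.44 to -0.36) and in GABAergic neuron-like cells 0.07 (-0.28 to 0.42). Mature oligodendrocyte-like cells had 33.3 and 31.0 CPM, a ratio of -0.10 (-0.37 to 0.17). Microglia-like cells held 1 Control UMI and no SC300 UMI.

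*Thra* gave 252 and 205 UMIs in tanycyte-like cells, at 53.8 CPM (47.4 to 60.9) and 63.6 CPM (55.2 to 72.9), a ratio of 0.24 (-0.03 to 0.51). This ratio was -0.30 (-0.76 to 0.15) without the cells that passed the astrocyte gate, so its sign was not settled. In the other classes the ratio was 0.31 (0.13 to 0.49) in astrocyte-like cells, 0.14 (-0.01 to 0.29) in neuron-like cells, 0.11 (-0.03 to 0.25) in mature oligodendrocyte-like cells, 0.04 (-0.24 to 0.33) in oligodendrocyte precursor-like cells and -0.46 (-0.92 to -0.01) in endothelial-like cells. The endothelial value became -0.05 (-0.29 to 0.19) with cells of more than 1 gate placed. Of the 7 classes with at least 50 cells in each library, the highest *Thra* level was in mature oligodendrocyte-like cells (117 and 127 CPM), followed by oligodendrocyte precursor-like cells (95.7 and 98.6 CPM), whose interval overlapped that of the mature cells in Control only. The 19 Control and 12 SC300 newly formed oligodendrocyte-like cells had 182 CPM (122 to 261) and 256 CPM (188 to 339), from 29 and 48 UMIs. Their interval lay above that of the mature cells in SC300 and overlapped it in Control (109 to 126). In these newly formed cells, 3 cells held 55.2% of the UMIs in Control and 52.1% in SC300. Microglia-like cells had 4 and 9 UMIs. The gene overlaps *Nr1d1* on the opposite strand in RefSeq, and counts of *Thra* do not separate its isoforms.

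*Klf9*, a transcription factor gene that responds to thyroid hormone and to glucocorticoids, was lower in SC300 in tanycyte-like cells and in most other classes. Tanycyte-like cells had 328 and 130 UMIs, at 70.1 CPM (62.7 to 78.1) and 40.3 CPM (33.7 to 47.9), a ratio of -0.80 (-1.10 to -0.50), and 54.1% and 41.6% of cells had the transcript. The ratio was -0.76 (-0.96 to -0.56) in neuron-like, -0.61 (-0.86 to -0.36) in endothelial-like, -0.47 (-0.79 to -0.16) in oligodendrocyte precursor-like, -0.32 (-0.41 to -0.24) in astrocyte-like and -0.32 (-0.46 to -0.18) in mature oligodendrocyte-like cells. Over all genes with 100 UMIs, the interval was below 0 for 15.9% in neuron-like, 8.06% in endothelial-like, 6.89% in oligodendrocyte precursor-like, 14.9% in astrocyte-like and 12.9% in mature oligodendrocyte-like cells. For *Klf9* it lay below 0 in all 6 classes in which the gene had at least 100 UMIs. Of 2749 genes with at least 100 UMIs in each of these classes, 12, or 0.437%, had an interval below 0 in all 6. Microglia-like cells held 15 UMIs in each library (4.68 and 4.82 CPM, ratio 0.04, -1.09 to 1.17). In ependymal-like cells 11 and 13 UMIs gave a ratio of 0.19, with an interval on both sides of 0. Of the 7 classes with at least 50 cells in each library, levels were highest in astrocyte-like (259 and 207 CPM) and endothelial-like cells (244 and 160 CPM), whose intervals overlapped in Control and not in SC300. Among the smaller classes, 28 Control and 30 SC300 mural-like cells had 306 CPM (199.9 to 448) and 121 CPM (66.3 to 204). Their ratio was -1.33 (-2.39 to -0.34), from 26 and 14 UMIs. With cells of more than 1 gate placed, 101 and 102 mural-like cells had a ratio of -0.66 (-0.88 to -0.44). In 10 Control and 27 SC300 stromal-like cells the levels were 133 CPM (68.6 to 232) and 164 CPM (118 to 222). Here the ratio was 0.30 (-0.65 to 1.37).

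A list of 5 genes with known glucocorticoid induction was chosen after the values of *Klf9* were seen, and its genes differed from each other. *Sgk1* had an interval below 0 in 7 of 7 classes and *Tsc22d3* in 5 of 7. Of 4325 genes with 50 UMIs in each of the 7 classes, 0.254% were below 0 in all 7 and 1.29% in at least 5. *Fkbp5* was below 0 in 2 of the 5 classes with 50 UMIs, with a ratio of -0.05 in tanycyte-like and -0.02 in neuron-like cells. In tanycyte-like cells 3 genes of the list had 50 UMIs, with ratios from -1.44 to -0.05. The interval lay below 0 for 2 of these 3, against 14.8% of all genes with 50 UMIs. *Zbtb16* was not in the 1 class with 50 UMIs, and *Per1* had no such class.

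The measured immediate early and heat shock genes, which cell dissociation can induce, were below 0 in more classes than above, except for *Hspa1b*. *Egr1* was below 0 in 6 of 7 classes, *Fos*, *Junb* and *Dusp1* in 4 of 7 and *Jun* in 3 of 7, and 3.33% of the genes were below 0 in at least 4. *Fos* was above 0 in 1 class and *Jun* in 2. *Dusp1*, for example, had a ratio of -0.87 in endothelial-like and -0.63 in neuron-like cells. In tanycyte-like cells *Jun* (-0.01), *Junb* (0.01), *Dusp1* (0.02) and *Egr1* (-0.08) had intervals that held 0, and *Fos* had a ratio of 0.26 (0.20 to 0.32). *Hspa1b* was above 0 in 4 classes and below 0 in 2, among them the tanycyte-like cells, with a ratio of -0.18.

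Of 7 clock genes in phase with *Dbp*, 5 had 50 UMIs in tanycyte-like cells (*Dbp*, *Tef*, *Nr1d1*, *Nr1d2* and *Per3*), and all 5 had an interval below 0 there, with ratios from -1.17 to -0.28, against 14.8% of all genes with 50 UMIs. *Dbp* gave 958 and 294 UMIs in these cells. Over all classes, *Dbp* was above 0 in 1 of 7 and below 0 in 2, *Per3* in 3 and 2, *Tef* in 1 and 2 and *Nr1d2* in 1 and 1. *Nr1d1* was below 0 in 2 of 6 classes and above 0 in 0. The tanycyte-like cells are among the classes below 0 for each of these genes. The part of these differences in the *Klf9* values was not tested.

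**Figure D3:**
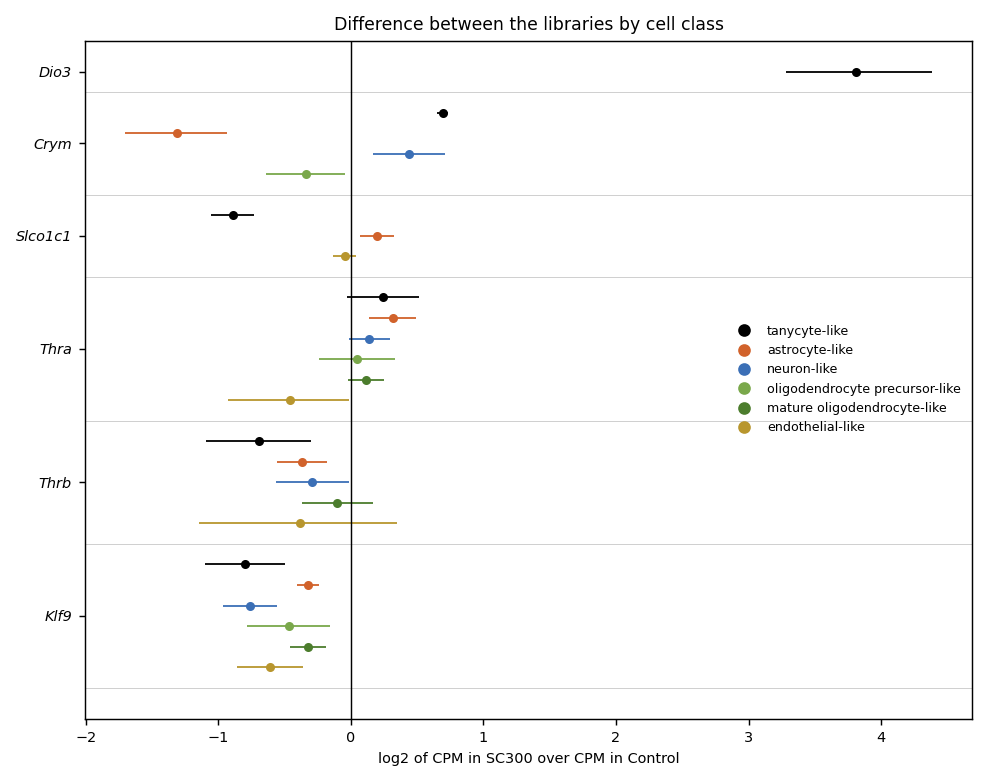
Log2 ratio of CPM in SC300 over Control for each of 6 members, with exact 95% counting intervals, coloured by cell class. Of the 7 classes with at least 50 cells in each library, those with at least 50 UMIs of the gene are shown. Smaller classes, such as ependymal-like and stromal-like cells, are left out. All 6 *Klf9* values shown lie below 0, *Crym* lies on both sides of 0, and *Dio3* has 1 value, 3.81 in tanycyte-like cells.

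*Ttr*, which encodes transthyretin, was near absent. It gave 7 UMIs in all 4296 Control cells and 7 UMIs in all 4379 SC300 cells. Of these, 3 Control UMIs and no SC300 UMI lay in tanycyte-like cells. No cell was assigned to the choroid plexus class, which covers the main brain source of *Ttr*, and 1 SC300 tanycyte-like cell also passed its gate. In 161 SC300 tanycyte-like cells a count of 0 allows a share of cells with a UMI of up to 1.86%, by the same 3 counts.

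A further division used markers of the median eminence (*Col25a1*, *Scn7a*, *Adm*) and of other tanycytes (*Slc17a8*, *Vcan*, *Frzb*). Median eminence cells numbered 10 in Control and 11 in SC300, other cells 93 and 45, and 180 and 105 cells stayed undecided. *Frzb* was highest in the cells called median eminence, at 1037 and 472 CPM, so these markers separated the subsets poorly. *Dio3* was higher in SC300 in the other cells (17 and 141 UMIs, ratio 3.30, 2.57 to 4.12) and in the undecided cells (13 and 166 UMIs, ratio 4.40, 3.59 to 5.34), while the median eminence cells held 2 UMIs in each library. *Slco1c1* had ratios of -0.96 and -1.08 in the other and undecided cells and 0.12 (-0.43 to 0.67) in the median eminence cells. *Crym* had ratios of 0.51 and 0.86 in the other and undecided cells and -0.30 (-0.45 to -0.15) in the median eminence cells. With about 10 cells a library, the median eminence values rest on few cells, and the differences between subsets were not tested.

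*Dio3* was found beside the other members in single cells. Of the 51 SC300 cells with *Dio3*, 42 also had *Slco1c1* and 46 had *Crym*, and of the 110 SC300 cells without it, 79 and 90 did. In Control, 17 and 16 of the 19 cells with *Dio3* had *Slco1c1* and *Crym*, and of the 264 cells without it, 204 and 224 did. Cells with *Slco1c1* had *Crym* in 91.0% of Control and 91.7% of SC300 cells, and cells without it in 62.9% and 62.5%. In SC300 the cells with *Dio3* had 3107 CPM of *Crym*, 148 CPM of *Slco1c1* and 18.8 CPM of *Thrb*, and those without it had 2685, 125 and 27.7 CPM, respectively. Deeper cells can show more of every transcript. The median depth was 13339 UMIs in SC300 cells with *Dio3* and 12564 UMIs in those without.

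Of 44 other names of the thyroid hormone pathway, 43 were measured and 24 had at least 50 UMIs in tanycyte-like cells. Of the 24, 0 were more than 2-fold higher in SC300 and 3 more than 2-fold lower (*Slco1a4*, *Aldh1a1* and *Trhde*), against 1.19% and 1.77% of the 8971 genes with 50 UMIs. Their median ratio was -0.08, close to that of all genes. The interval was above 0 for 2 of the 24 and below 0 for 5, against 8.71% and 14.8% of the 8971 genes.

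Of 4 transporter genes with 50 UMIs, 3 had an interval below 0, which 14.8% of all genes had, and none above. *Slco1a4*, an endothelial organic anion transporter, gave 67 Control and 3 SC300 UMIs (ratio -3.94, -6.26 to -2.33). Without the cells that passed the endothelial gate it gave 4 and 3 UMIs, so the *Slco1a4* value came from those cells. *Slc7a5*, which encodes the amino acid transporter LAT1, moved from -0.97 (-1.66 to -0.32) to 0.71 (-0.13 to 1.56) without them. *Slc3a2*, the gene of its partner subunit, moved from -0.69 to -0.47 (-0.62 to -0.32).

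Among genes of deiodinase turnover, sulfation and selenoprotein synthesis, none of the 6 with 50 UMIs had an interval away from 0, and their ratios ran from -0.08 to 0.42. *Dio1*, the gene of the type 1 deiodinase, had no UMI in tanycyte-like cells of either library. Of 8 receptor partners with 50 UMIs, 1 had an interval away from 0, the corepressor gene *Ncor1*, with a ratio of 0.21 (0.01 to 0.40). Over all 8971 genes with 50 UMIs, the interval lay above 0 for 8.71% and below 0 for 14.8%. Of 2 genes with 50 UMIs that are known to respond to the hormone, *Aldh1a1*, a retinaldehyde dehydrogenase gene, had 577 and 73 UMIs (123 and 22.6 CPM, ratio -2.44, -2.82 to -2.09), and *Mbp* had a ratio of 0.02 (-0.16 to 0.20). Tanycyte-like cells held 607 and 423 of the 105630 and 142019 *Mbp* UMIs of all kept cells. Whether this RNA arose in the tanycyte-like cells was not tested. *Trhde*, which encodes the enzyme that degrades thyrotropin-releasing hormone, had 244 and 61 UMIs (52.1 and 18.9 CPM, ratio -1.46, -1.89 to -1.05). *Tshr*, the thyrotropin receptor gene, had 74 and 55 UMIs, a ratio of 0.11 (-0.42 to 0.63). *Rbp4*, the retinol carrier that binds transthyretin, had 57.0 and 102 CPM, a ratio of 0.84 (0.60 to 1.08). *Tshb*, *Cga*, *Trhr*, *Iyd* and *Alb* had no UMI in these cells.

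**Figure D4:**
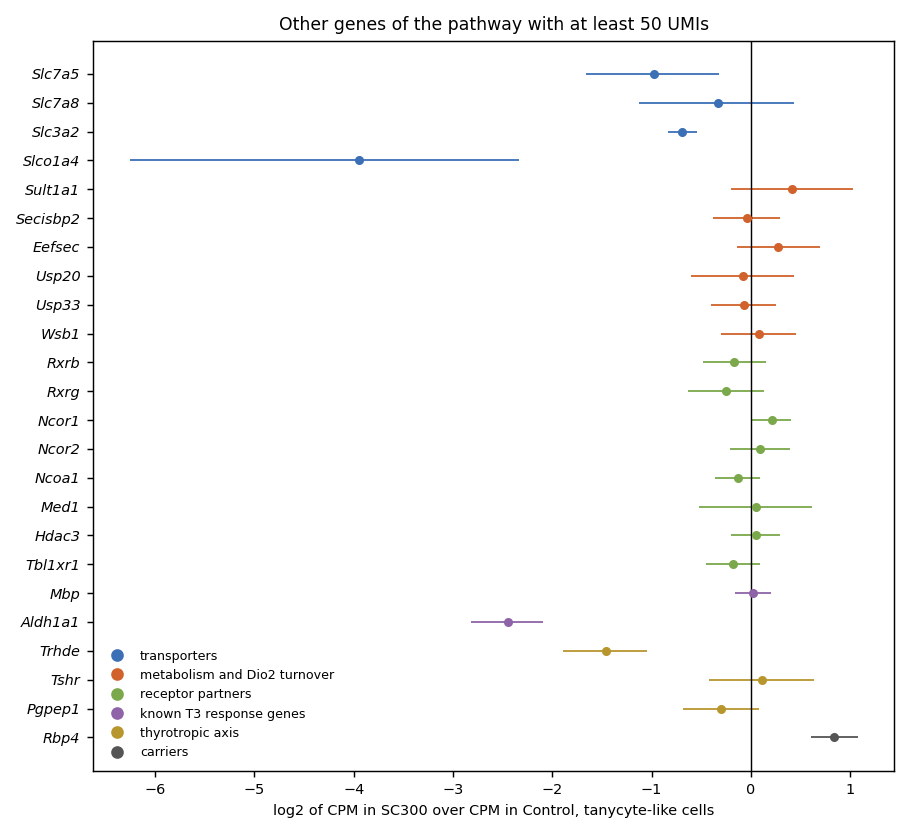
Log2 ratio of CPM in SC300 over Control in tanycyte-like cells for the 24 other pathway genes with at least 50 UMIs, with exact 95% counting intervals, coloured by list. *Aldh1a1* (-2.44), *Trhde* (-1.46) and *Slco1a4* (-3.94) lie more than 2-fold below 0, and *Slco1a4* rests on cells that also passed the endothelial gate.

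The genes whose pattern over classes was most like that of each member were found by the Pearson correlation of log2(CPM + 1) over 7 classes in 2 libraries, 14 points that share libraries and depth. *Dio3* was closest to *Col6a1* (0.95), *Prss56* (0.93) and *Mdh1b* (0.92), *Crym* to *Ift74* (0.98), *Ccdc34* (0.98) and *Fgf10* (0.97), and *Slco1c1* to *Wwtr1*, *Sult1a1* and *Ephb4* (0.98 to 0.99). *Dio3* had no UMI in microglia-like, endothelial-like and both of these oligodendrocyte-lineage classes, and few in astrocyte-like and neuron-like cells. Its correlations therefore rest mostly on the tanycyte-like points, at 6.84 and 95.9 CPM. *Thra* was closest to *Schip1*, *Pard3* and *Armcx3* (0.95 to 0.97), *Thrb* to *Bcar1*, *Tle1* and *Fam171a1* (0.93 to 0.96), and *Klf9* to *Plpp1*, *Tjp1* and *Fermt2* (0.94 to 0.96). *Ttr* had too few UMIs for such a measure.

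Other gates, filters and scalings left the direction of *Dio3*, *Slco1c1* and *Klf9* in tanycyte-like cells in place. The *Dio3* ratio ran from 3.37 to 4.35, that of *Slco1c1* from -1.47 to -0.65 and that of *Klf9* from -1.25 to -0.62. The *Crym* ratio was 0.00 without the cells that passed the ependymal gate and ran from 0.57 to 0.92 under the other settings.

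**Figure D5:**
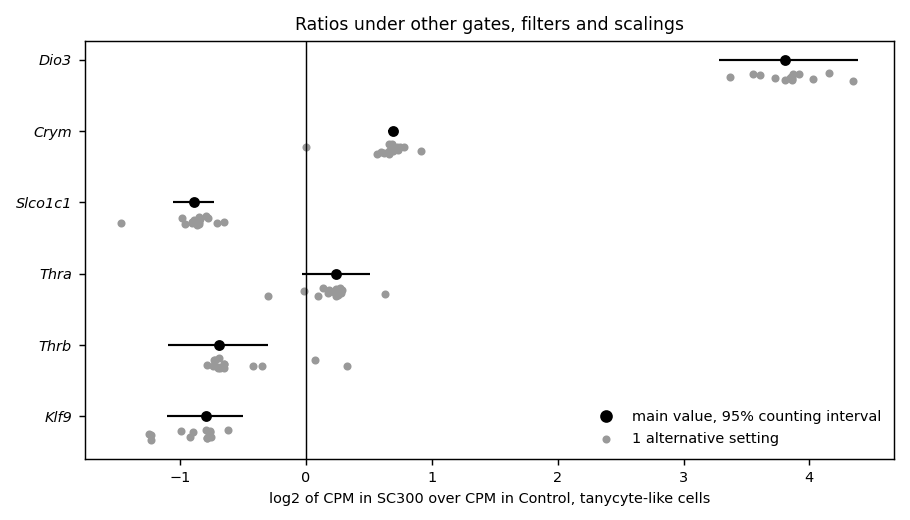
Log2 ratio of CPM in SC300 over Control in tanycyte-like cells for 6 members, with the main value and its exact 95% counting interval (black) and the value under each alternative gate, filter or scaling (grey, spread vertically for visibility). *Dio3* stays above 0 and *Slco1c1* and *Klf9* below 0, *Crym* has 1 alternative at 0.00 (without cells of the ependymal gate), and *Thra* and *Thrb* have alternatives on both sides.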

How the data were processed

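Hypothalamic cells of 2 groups, Control and SC300, were analysed, with 1 library of 3 pooled rats each. The authors aligned the reads to the Ensembl 96 rat transcriptome with Cell Ranger (3.0.2 for demultiplexing in the methods, and 3.0.1 in the submitters' processing notes) and deposited counts of UMIs per gene and cell for each library, as whole numbers. The methods name a step that merges samples, and its effect on the counts is not given in the sources used here.

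Cells with at least 200 genes were kept. A gate needed 3 of its 5 markers, or 3 of the 4 that matched for the ependymal and endothelial gates. UMIs were summed per class and scaled to CPM. With 1 library per group no test was made, and only exact 95% intervals are given. They were checked on simulated counts that held counting error alone, so the check does not cover the spread between cells or rats. Depth limits values below about 100 UMIs. Shares were repeated after thinning to 2000 UMIs. Scrublet doublets (70 and 73 cells, 7 and 5 tanycyte-like) were kept. Named genes were the members, the pathway genes over 2-fold apart with at least 50 UMIs, *Tshr*, *Trhde*, absent list genes and the 3 most alike in pattern. A further gene of the lists is not reported here. Other pathway genes were named after their values were seen, and so were the stress and clock genes, the limit of 4000 CPM, the endothelial, astrocyte and ependymal alternatives and the 1.5-fold count. Members and lists were chosen with earlier results of these data known. Sums and intervals were computed with scipy 1.17.1 and numpy 2.4.6, and doublets with scanpy 1.11.5, in Python 3.11.15 with pandas 2.3.3.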

Additional observations from a re-analysis of the deposited data

Results flagged for a closer look

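The ratio of a member had opposite signs in 2 classes, with both counting intervals away from 0, in 6 pairs. *Slco1c1* was at 0.20 in astrocyte-like and -0.89 in tanycyte-like cells. *Thra* was at 0.31 in astrocyte-like and -0.46 in endothelial-like cells, and the second value became -0.05 with cells of more than 1 gate placed. *Crym* was at 0.69 in tanycyte-like and 0.44 in neuron-like cells, against -1.31 in astrocyte-like and -0.34 in oligodendrocyte precursor-like cells, which gives the other 4 pairs. With cells of more than 1 gate placed, the value in astrocyte-like cells became -0.61 and the last of these values -0.11 (-0.37 to 0.15). In Control, 1 astrocyte-like cell held 101 of 186 *Crym* UMIs, and without the 3 cells with the most UMIs in each library the astrocyte-like ratio was -0.53 (-1.10 to 0.03). The tanycyte-like value was 0.00 (-0.13 to 0.13) in cells that did not pass the ependymal gate. In those of them that passed no other gate it was 0.92 (0.76 to 1.07), from 54 and 18 cells, and 1 SC300 cell held 171 of the 568 UMIs. The differences between classes were not tested, because each group has 1 library.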

How the results depend on the processing

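Of 135 values under another setting, 7 changed sign against the main value. The setting with all deposited barcodes took the same 283 and 161 tanycyte-like cells, so its ratios could not differ from the main ones. Of these, 2 were ratios of *Thrb* whose main interval lay away from 0, 2 were ratios of *Thra* (-0.30 and -0.01) and 3 were shares of cells with *Crym* near a ratio of 0 (0.01 to 0.05). Besides those of *Thrb*, 109 values were classed as the same and 24 as moved. For ratios and shares this meant inside or outside the main counting interval. The numbers of genes over 2-fold apart, also among the 135 values, have no such interval. The cause of the moves was not tested. In cells that pass no other gate (54 and 18 cells) the ratio of *Thrb* was 0.33 from 11 and 5 UMIs, that of *Slco1c1* -0.65 and that of *Crym* 0.92. *Crym* was at 0.78 with at least 4 of 5 markers, 0.75 with at most 20% mitochondrial UMIs and 0.60 with every cell weighted alike, where *Klf9* was at -1.23. Of the settings added after seeing the data, leaving out cells with ependymal markers at 4000 CPM or more gave 0.57 for *Crym*. Leaving out cells that pass the ependymal gate (80 and 30 cells left) gave 0.00099 for *Crym*, 0.072 for *Thrb*, 0.63 for *Thra*, -1.47 for *Slco1c1* and -1.25 for *Klf9*. Leaving out cells that pass the astrocyte gate gave 0.62 for *Crym*, -0.30 for *Thra* and -1.23 for *Klf9*. Leaving out those that pass the endothelial gate gave -0.71 for *Slco1c1*. After thinning, the log2 ratio of the share of cells was -0.50 for *Slco1c1* and -1.87 for *Thrb*. The *Thrb* value rests on 19 of 276 Control and 3 of 159 SC300 cells, whose share intervals overlapped. Genes over 2-fold higher numbered 61 at 100 UMIs, 107 at 50 and 27 at 200, and those over 2-fold lower 78, 159 and 49. *Ttr* and *Dio2* gave no ratio under any setting. The main limits are 1 pool of rats per group, few UMIs for *Thrb* and for *Dio3* in Control, and a gate that also takes cells with ependymal or astrocyte markers. No paired analysis was possible because each group has 1 library and no result comes from a test.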
